A study of Mus musculus with 9 samples.

Results

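The osteocalcin genes and the genes of vitamin K-dependent carboxylation were described in whole osteosarcomas of genetically engineered mouse models (GEMMs). They are 7 of the 55367 genes in the deposited table, chosen by symbol: Bglap, Bglap2 and Bglap3, which encode osteocalcin and its close relatives, Mgp, which encodes matrix Gla protein, and Ggcx, Vkorc1 and Vkorc1l1, which encode the enzymes that carboxylate such proteins and recycle vitamin K. The set was proposed with the comparison of the genotypes already known, so its differences are given as a description, without a test. Spontaneous whole tumors were sequenced, 4 of them p53 driven (named F187, F325, F331 and F368) and 5 with Myc knocked in (named M351, M408, M9, M624 and M664, with M351, M9 and M664 placed there by the letter M alone). The p53-driven tumors are labelled Col2.3-Cre/TrpP53fl/+, and the Myc-knockin tumors carry a Lox-Stop-Lox (LSL) allele of c-MycT58A beside Cre and p53fl/+. Both carry the same Cre, driven by the osteoblast-specific promoter Col2.3, and 1 floxed Trp53 allele, and the Myc knockin adds a mutant c-Myc that Cre switches on. The labels give neither the age of the mice nor whether all tumors came from separate mice, so p values measure the spread between these tumors. The study reports a shorter median time to sacrifice for the Myc-knockin than for the p53 model, so age may differ along with genotype. In such bulk tissue, fewer cells of a type and less RNA per cell cannot be told apart.

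Osteocalcin is a small protein that mature osteoblasts secrete into bone matrix. Before secretion, GGCX converts selected glutamates of osteocalcin, matrix Gla protein and several clotting factors to gamma-carboxyglutamate (Gla), which binds calcium. The reaction oxidizes vitamin K to its epoxide, and VKORC1, the target of warfarin, reduces it again, as its relative VKORC1L1 also can. Matrix Gla protein is known as an inhibitor of calcification in cartilage and vessel walls.

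The osteocalcin genes lie in a cluster on the reverse strand of chromosome 3 of mm10, with Bglap (ENSMUSG00000074483) from 88383501 to 88384464, Bglap2 (ENSMUSG00000074486) from 88377736 to 88378699 and Bglap3 (ENSMUSG00000074489) from 88368616 to 88372743. Gaps of 4801 and 4992 bases separate them. The coding sequences of Bglap and Bglap2 differ at 4 of 288 bases, and those of Bglap and Bglap3 at 13. The end of each reading frame, which encodes the mature hormone of 46 residues and the stop codon, is shown because it carries the Gla region and shows how alike the copies are. Capitals mark the bases that differ from Bglap in GENCODE vM21 transcripts.
Bglap: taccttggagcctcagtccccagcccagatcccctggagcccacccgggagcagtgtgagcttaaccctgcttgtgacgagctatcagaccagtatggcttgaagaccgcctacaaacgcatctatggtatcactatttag
Bglap2: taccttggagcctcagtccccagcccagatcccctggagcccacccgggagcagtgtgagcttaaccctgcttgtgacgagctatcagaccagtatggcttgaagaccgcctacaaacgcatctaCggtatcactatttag
Bglap3: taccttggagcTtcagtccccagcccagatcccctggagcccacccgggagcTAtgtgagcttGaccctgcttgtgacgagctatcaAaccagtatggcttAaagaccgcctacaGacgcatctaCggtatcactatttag
Bglap2 differed from Bglap at 1 base in this stretch and Bglap3 at 8 bases.

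Mgp (ENSMUSG00000030218, chromosome 6, 136872435 to 136875823, reverse strand) shares with the osteocalcin genes a short signature in which 2 glutamate codons precede a cysteine codon. It is shown for Bglap, Bglap3 and Mgp with those 3 codons in capitals, since this is the sequence the members for Gla proteins have in common.
Bglap: GAGcccacccggGAGcagTGT
Bglap3: GAGcccacccggGAGctaTGT
Mgp: GAGatcaacagaGAGgccTGC
The signature spans codons 62 to 68 of Bglap and Bglap3 and codons 67 to 73 of Mgp. Ggcx (ENSMUSG00000053460) lies on chromosome 6 from 72414308 to 72430712, Vkorc1 (ENSMUSG00000096145) on chromosome 7 from 127893063 to 127895617 and Vkorc1l1 (ENSMUSG00000066735) on chromosome 5 from 129941970 to 129986692.

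Of the 7 members, 5 matched a promoter in the RefSeq table of GRCm38.p6, and that of Bglap (reverse strand, chr3:88384417-88384716) is printed because Bglap had one of the largest differences between the genotypes. It runs from 250 bases before the annotated start to 50 bases from it. Capitals mark TTACATCA, the element named OSE1 and bound by ATF4, and TATAAA, the core promoter box.
Bglap promoter: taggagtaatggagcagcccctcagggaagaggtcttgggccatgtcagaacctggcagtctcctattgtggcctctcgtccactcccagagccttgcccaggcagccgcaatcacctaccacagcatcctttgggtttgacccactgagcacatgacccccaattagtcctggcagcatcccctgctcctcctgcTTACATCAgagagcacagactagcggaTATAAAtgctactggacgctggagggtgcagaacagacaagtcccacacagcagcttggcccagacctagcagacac
TTACATCA began 54 bases before the start and was present on either strand in 1.1% of 32851 promoters of this length, and TATAAA began 27 bases before it and was present in 13.62%. AACCACA, named OSE2 and bound by RUNX2, was not among these letters and was present in 5.27% of promoters. Only this exact string was searched. ACCACA, the same letters without the first A, does occur in the printed stretch, so the search does not show that a RUNX2 element is absent. The E-box of MYC and MAX, CACGTG, was not among them either and was present in 7.15%. The general E-box CANNTG, which includes the E-box of MYC and MAX, was found 1 time in the Bglap promoter and at least 1 time in 72.31% of all promoters. The 3 promoters listed for Bglap3 and those of Ggcx, Vkorc1 and Vkorc1l1 held none of the exact strings for the OSE elements, the core promoter box and the MYC E-box. The first Bglap3 promoter does contain TATATAA, which a search for TATAAA misses. These matches describe letters and not bound sites.

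Several features of the libraries bear on the values. Total counts ranged from 2716322 to 17073285. Reads on 12 predicted genes of satellite repeat made up 23.2% to 81.0% of the counts in F187, M351, M408 and M9 and at most 0.0242% in the others, and Rn7sk, an abundant small nuclear RNA, had 3.47 and 6.35 CPM in M624 and M664 against at least 6550 CPM elsewhere. CPM is the count scaled to the TMM-normalized library size. Libraries like F325, F331 and F368, with few satellite reads and abundant Rn7sk, were absent from the Myc-knockin group. Without F187, M351, M408 and M9, genotype and library type therefore cannot be told apart. The engineered gene, Myc, had 43.5 to 67.1 CPM in the p53-driven and 144 to 1040 CPM in the Myc-knockin tumors. Of 8 osteoblast markers all were detected in both genotypes, with a summed level of 66500 to 155000 CPM in the p53-driven and 4500 to 46300 CPM in the Myc-knockin tumors. Col1a1, Col1a2 and Sparc dominate this sum, with means of 67800, 45500 and 12300 CPM in the p53-driven tumors. Of the 8, edgeR called 0, and Alpl, Ibsp, Sp7, Sparc and Pth1r overlapped between the genotypes, Pth1r with a higher mean in the Myc-knockin tumors. M624 had the lowest sum, with 9.18 CPM of Runx2 and 34.1 CPM of Ibsp.

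Osteocalcin transcripts were high in every p53-driven tumor and scarce in every Myc-knockin tumor. Bglap measured 83.3, 17.7, 72.0 and 42.8 CPM in F187, F325, F331 and F368, from 211, 228, 832 and 352 reads. In M351, M408, M9, M624 and M664 it measured 0.616, 0, 3.98, 0.0381 and 2.98 CPM, from 1, 0, 5, 1 and 69 reads. The groups did not overlap, and the lowest p53-driven tumor, F325, stood above the highest Myc-knockin tumor, M9. The means were 54.0 ± 29.6 CPM (SD, n = 4) and 1.52 ± 1.84 CPM (SD, n = 5), a 35.4-fold difference, and edgeR's log2 fold change (Myc knockin minus p53 driven, as throughout) was -5.34 with a standard error of 1.05.

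Bglap2, the neighboring copy, followed the same division. It measured 115, 39.7, 51.1 and 87.4 CPM in the p53-driven tumors in the same order, from 291, 511, 591 and 719 reads. It measured 1.23, 0, 6.37, 0 and 3.24 CPM in the Myc-knockin tumors, from 2, 0, 8, 0 and 75 reads. These groups did not overlap either, with F325 again lowest and M9 again highest in its group. The means were 73.3 ± 34.4 CPM (SD, n = 4) and 2.17 ± 2.70 CPM (SD, n = 5), a 33.8-fold difference, with a log2 fold change of -5.42 (standard error 1.13).

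The Myc-knockin tumors differed in what their few osteocalcin reads were. M664 was sequenced deeply and held 144 reads on Bglap and Bglap2 together, where the estimated genomic background was 0.042 reads. M408 held no read on any of the 3 genes, which allows up to 0.549 CPM for each. In M351 the 9 reads on the 3 genes compared with an estimated background of 4.1 reads, of which 2.9 fell to Bglap3. In M9 the 17 reads compared with 4.6, of which 3.2 fell to Bglap3. On Bglap and Bglap2 together, M9 held 13 reads over a background of 1.3, or 10.4 CPM, against 6.22 CPM in M664. M351 held 3 reads on the pair over a background of 1.2, and M624 1 read over 0.042. Low but measurable osteocalcin in M664 and M9 and none detectable in M408 thus stood side by side within the genotype.

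Bglap3, the third copy, did not separate the genotypes. It measured 2.37, 1.01, 0.346 and 6.44 CPM in the p53-driven tumors, from 6, 13, 4 and 53 reads. It measured 3.69, 0, 3.19, 3.01 and 0.216 CPM in the Myc-knockin tumors, from 6, 0, 4, 79 and 5 reads. The groups overlapped, and the log2 fold change was -0.43 with a standard error of 1.17. The reads in F187, M351 and M9 were few beside the estimated background of 1.9, 2.9 and 3.2 reads there. In M624, by contrast, 79 reads were counted over a background of 0.10, while a single read fell on Bglap and none on Bglap2.

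**Figure D1:**
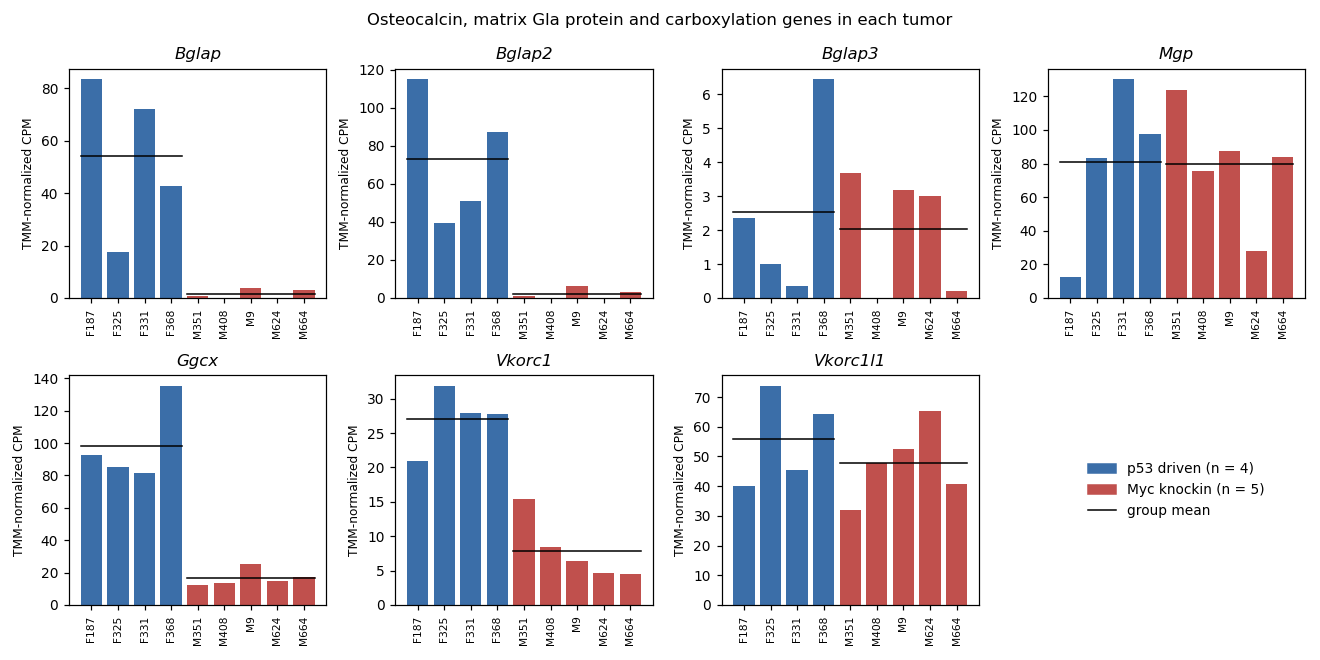
TMM-normalized CPM of the 7 genes in each tumor, with blue bars for 4 p53-driven and red bars for 5 Myc-knockin tumors, a black line at each group mean and an axis of its own for each gene. Bglap, Bglap2, Ggcx and Vkorc1 were higher in all p53-driven than in all Myc-knockin tumors, whereas the groups overlapped for Bglap3, Mgp and Vkorc1l1.

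Because the copies are so alike, the division of reads between them can depend on how the counting handled ambiguous reads. Of the stretches of 76 bases in the Bglap transcript, 65.8% also occur in Bglap2 and 2.5% in Bglap3. Bglap took 42.0% of the reads on the pair in F187 (95% interval 37.7 to 46.5%) and 30.9% in F325 (27.5 to 34.3%). It took 58.5% in F331 (55.9 to 61.0%) and 32.9% in F368 (30.1 to 35.8%). F331 was thus the p53-driven tumor in which Bglap exceeded Bglap2, and in M664 the share was 47.9% of 144 reads (39.5 to 56.4%). Bglap3 took at most 4.72% of all osteocalcin reads in the p53-driven tumors and 98.8% of the 80 reads in M624 (93.2 to 100%).

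**Figure D2:**
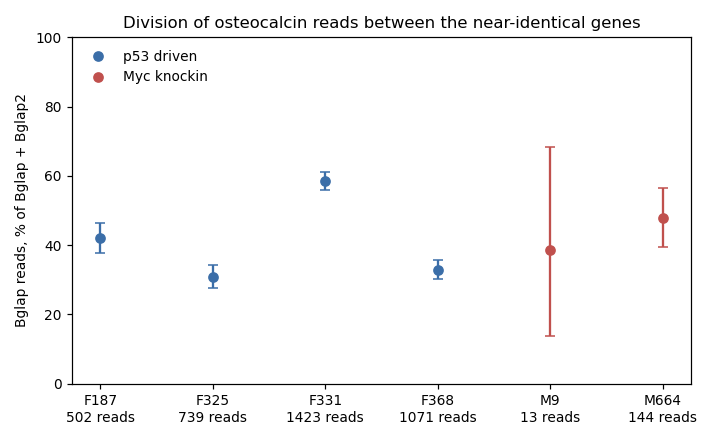
Share of Bglap among the reads counted on Bglap and Bglap2, in percent, in the 6 tumors with at least 10 such reads, with exact 95% binomial intervals as bars and the number of reads under each tumor. The share ranged from 30.9% in F325 to 58.5% in F331, and M9, with 13 reads, had the widest interval.

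Summing the 3 genes removes this division, but it cannot restore ambiguous reads if the counting discarded them. The sum measured 201, 58.5, 123 and 137 CPM in the p53-driven tumors and 5.54, 0, 13.5, 3.05 and 6.43 CPM in the Myc-knockin tumors, in the order given above. The groups did not overlap, with means of 130 ± 58.3 CPM (SD, n = 4) and 5.71 ± 5.04 CPM (SD, n = 5), a 22.7-fold difference. The log2 fold change of the sum was -4.67 with a standard error of 0.83. It was -4.63 (standard error 1.06) without M624 and M664, and -4.46 (standard error 0.60) without the 4 libraries with satellite reads. After the latter removal the Myc-knockin libraries held little Rn7sk and the p53-driven libraries much, so genotype and library type cannot be told apart. Within the 4 libraries with satellite reads, where F187 is the lone p53-driven tumor and its spread is taken from the other group, the log2 fold change was -5.28 (standard error 1.35).

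Ggcx, the carboxylase gene, was lower in all Myc-knockin tumors. It measured 92.4, 85.2, 81.2 and 135 CPM in the p53-driven tumors and 12.3, 13.4, 25.5, 14.8 and 17.4 CPM in the Myc-knockin tumors. The groups did not overlap, and the means were 98.4 ± 24.7 CPM (SD, n = 4) and 16.7 ± 5.28 CPM (SD, n = 5), a 5.90-fold difference. Ggcx had the smallest standard error among the 4 genes that separated the genotypes, with a log2 fold change of -2.58 (standard error 0.29). Genomic background was estimated at 3.6 of the 20 reads in M351 and 4.0 of the 32 reads in M9.

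Vkorc1, the epoxide reductase gene, also separated the genotypes, by less. It measured 20.9, 31.8, 27.9 and 27.8 CPM in the p53-driven tumors and 15.4, 8.42, 6.37, 4.57 and 4.45 CPM in the Myc-knockin tumors. The groups did not overlap, but the highest Myc-knockin tumor, M351, approached the lowest p53-driven tumor, F187. The means were 27.1 ± 4.53 CPM (SD, n = 4) and 7.84 ± 4.52 CPM (SD, n = 5), a 3.46-fold difference with a log2 fold change of -1.85 (standard error 0.40). Of its 840 exon bases, 401 are shared with Gm21974, an overlapping gene on the same strand. The log2 fold change was -2.67 (standard error 0.31) without the libraries with satellite reads and -1.09 (standard error 0.65) within them.

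Vkorc1l1, the relative of Vkorc1, did not separate the genotypes. It measured 39.9, 73.6, 45.3 and 64.4 CPM in the p53-driven tumors and 32.0, 47.8, 52.6, 65.3 and 40.8 CPM in the Myc-knockin tumors. The groups overlapped over most of their range, with a log2 fold change of -0.23 (standard error 0.29). In each tumor Ggcx was set against Vkorc1l1, and 1160 to 2320 Ggcx reads per 1000 Vkorc1l1 reads in the p53-driven tumors compared with 227 to 485 in the Myc-knockin tumors, without overlap. Vkorc1 reads per 1000 Vkorc1l1 reads were 432 to 616 and 70.1 to 481, with M351 inside the p53-driven range.

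Mgp, the calcification inhibitor, was present at similar mean levels. It measured 12.6, 83.2, 130 and 97.5 CPM in the p53-driven tumors and 124, 75.6, 87.6, 28.1 and 84.1 CPM in the Myc-knockin tumors. The groups overlapped, with the lowest values in F187 and M624, 1 tumor of each genotype. The means were 80.9 ± 49.5 CPM (SD, n = 4) and 79.8 ± 34.3 CPM (SD, n = 5), and the log2 fold change was -0.03 with a standard error of 0.56. It rested on which libraries were compared, at 2.87 (standard error 0.77) within the 4 libraries with satellite reads, where F187 is the lone p53-driven tumor, and at -0.86 (standard error 0.51) without them.

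**Figure D3:**
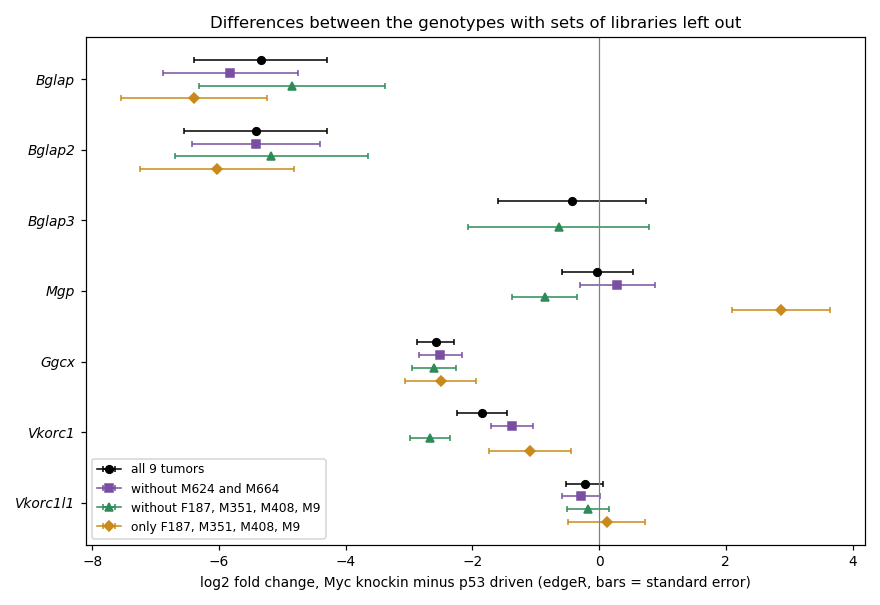
Log2 fold change of each gene, Myc knockin minus p53 driven, from edgeR with bars for the standard error, with all 9 tumors and with 3 other sets of libraries. Bglap, Bglap2, Ggcx and Vkorc1 lay below 0 in every set drawn, Mgp ranged from -0.86 to 2.87, and Bglap3 had too few reads to be tested in 2 of the sets.

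All 7 members passed the filter on low counts, although Bglap passed its cut-off of 1.46 CPM, which is taken relative to total counts without TMM, in 4 p53-driven and 1 Myc-knockin library, and Bglap2 in 4 and 2. Of the 7, 4 were called (Bglap, Bglap2, Ggcx and Vkorc1), all lower in the Myc-knockin tumors, where 5.27% of the 15365 genes tested were called, 3.00% lower and 2.26% higher (461 and 348 genes, or 345 lower and 626 higher with upper-quartile scaling). The groups did not overlap for the same 4 genes, against 13.0% of all genes in either direction and 7.54% lower. Without M624 and M664 the same 4 were called, beside 2.81% of 14308 genes called lower. Since the set was chosen on this contrast, nothing is read from these shares. The number called fell to 1, Ggcx, when F325, F331 or F368 was left out, and calls among all genes then fell to between 5 and 8. It was 3 without F187 or M351 (Bglap2 lost) and without M624 (Vkorc1 lost).

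Levels were compared between genes per kilobase of exon. Those of Bglap and Bglap2 may be too low, since it is not known whether ambiguous reads were discarded. The same holds for Vkorc1, which shares 401 of its 840 exon bases with Gm21974. Exon length counts every annotated exon of a gene, for Bglap3 2629 bases, while its coding transcripts have 717 to 2051 bases. In the p53-driven tumors Bglap2 (156 ± 73.0 CPM per kb), Bglap (87.3 ± 47.9) and Mgp (68.1 ± 41.7) were highest, followed by Vkorc1 (32.3 ± 5.39), Ggcx (30.3 ± 7.60), Vkorc1l1 (10.6 ± 3.01) and Bglap3 (0.967 ± 1.04), with SD and n = 4. Bglap2 and Bglap, Bglap and Mgp, Mgp and Vkorc1, and Vkorc1 and Ggcx were closer than the larger SD of the pair. In F331 Bglap (116) and Mgp (110) lay above Bglap2 (109). In F187 Mgp (10.6) lay below Vkorc1 (24.9) and Ggcx (28.5), and in F325 Bglap (28.7) lay below Vkorc1 (37.9). In the Myc-knockin tumors the order began with Mgp (67.3 ± 28.9 CPM per kb), followed by Vkorc1 (9.33 ± 5.38), Vkorc1l1 (9.07 ± 2.38), Ggcx (5.14 ± 1.63), Bglap2 (4.60 ± 5.73), Bglap (2.46 ± 2.98) and Bglap3 (0.769 ± 0.672), with SD and n = 5. The neighbors from Vkorc1 to Vkorc1l1 and from Ggcx to Bglap3 were closer than the larger SD of the pair. Bglap3 lay above Bglap in M351 (1.40 against 0.996) and in M624 (1.14 against 0.0617).

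Osteocalcin was next set against other osteoblast genes of the same tumor, as a description. Per 1000 reads of Sp7, the osteoblast transcription factor osterix, the summed osteocalcin reads numbered 240 to 1110 in the p53-driven and 0 to 118 in the Myc-knockin tumors. Per 1000 reads of Alpl, which encodes the alkaline phosphatase of mineralizing cells, they numbered 72.1 to 478 and 0 to 42.2. Neither ratio overlapped between the genotypes. Sp7 and Alpl themselves had log2 fold changes of only -0.80 and -0.83. These ratios therefore largely repeat the osteocalcin difference given above, in genes chosen on this contrast. Per 1000 reads of Col1a1, the main collagen of bone, they numbered 0.750 to 4.95 and 0 to 1.49, and F325 lay within the Myc-knockin range. Per 1000 reads of Ibsp, bone sialoprotein, they numbered 33.6 to 225 and 0 to 89.4, with the highest Myc-knockin value in M624, where Ibsp itself was low and Bglap3 gave nearly all osteocalcin reads.

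**Figure D4:**
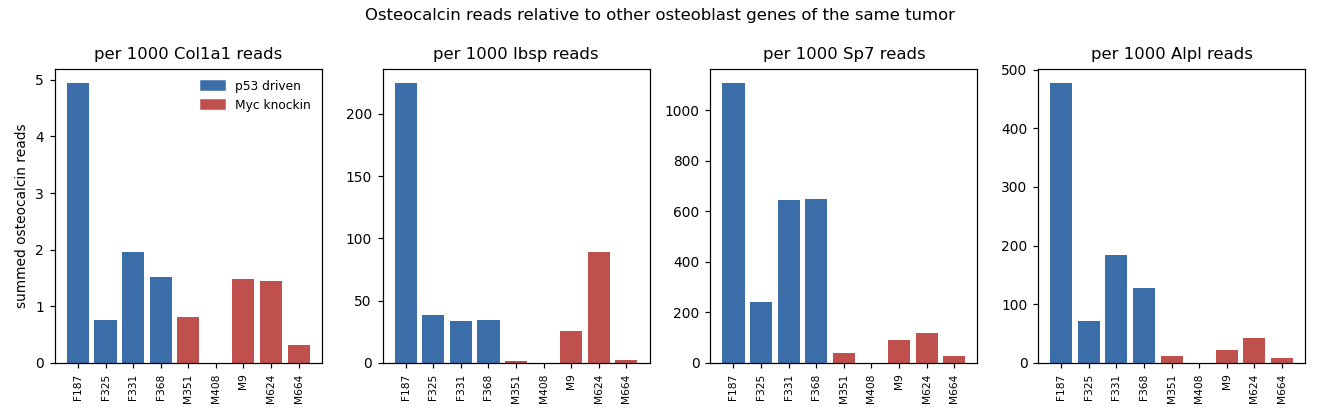
Summed reads of Bglap, Bglap2 and Bglap3 per 1000 reads of Col1a1, Ibsp, Sp7 or Alpl in each tumor, with blue bars for p53-driven and red bars for Myc-knockin tumors. The genotypes did not overlap for Sp7 and Alpl and overlapped for Col1a1 and Ibsp, and M408 is at 0 throughout.

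Of the 12 other osteoblast matrix genes, edgeR called 0, with 4 at an unadjusted p under 0.05, and DESeq2 and limma-voom each called Col1a1, Col1a2 and Sparc, all lower in the Myc-knockin tumors. Their median log2 fold change in edgeR was -0.87, beside 0.14 for all genes. Col1a1 had a log2 fold change of -3.00 (standard error 0.89, edgeR adjusted p = 0.0682) and Sparc, the gene for osteonectin, of -2.07 (standard error 0.68, edgeR adjusted p = 0.0886). Of the 12 log2 fold changes, 10 were below 0, among them Col1a2 at -2.87 (standard error 0.92) and the osteocyte gene Dmp1 at -1.64 (standard error 0.99). Phex, another osteocyte gene, had -0.37 (standard error 1.00) and Ifitm5 -0.05 (standard error 0.75). Above 0 were Mepe, also of osteocytes, at 3.27 (standard error 1.43), and Pth1r at 0.80 (standard error 0.72). Mepe had only 0 to 3.55 CPM in the p53-driven tumors, and Pth1r reached 633 CPM in M664. Of 12 regulators of the osteocalcin gene, 10 had a log2 fold change below 0, with a median of -0.66, and 1 was called by edgeR. This was Dlx3, a homeobox factor, at 55.3 to 65.6 CPM in the p53-driven and 9.45 to 36.5 CPM in the Myc-knockin tumors (log2 fold change -1.61, standard error 0.37, edgeR adjusted p = 0.0372). Runx2, the master regulator of osteoblasts, had a log2 fold change of -1.26 (standard error 0.61, edgeR adjusted p = 0.215) without overlap, and Atf4 of -0.83 (standard error 0.30, edgeR adjusted p = 0.109). The 2 regulators above 0 were the homeobox gene Msx2 at 2.48 (standard error 1.15, edgeR adjusted p = 0.194) and Cebpb, the gene for C/EBP beta, at 0.88 (standard error 0.31, edgeR adjusted p = 0.104) without overlap. DESeq2 called Dlx3, Atf4 and Vdr lower and Cebpb higher, and limma-voom called Dlx3 and Atf4 lower. Without the 4 libraries with satellite reads edgeR called Cebpb, higher, and not Dlx3.

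Among 8 genes of the vitamin K cycle and its redox partners, 1 was called by edgeR. Calu, which encodes calumenin, an inhibitor of the carboxylase in the endoplasmic reticulum, measured 644 to 1090 CPM in the p53-driven tumors and 262 to 401 CPM in the Myc-knockin tumors, lower without overlap (log2 fold change -1.39, standard error 0.32, edgeR adjusted p = 0.0363). P4hb, protein disulfide isomerase, had a log2 fold change of -1.10 (standard error 0.34, edgeR adjusted p = 0.0773). DESeq2 and limma-voom each called Calu, P4hb and Txndc12, all lower. P4hb and Txndc12 (log2 fold change -0.69, standard error 0.23) were lower without overlap, and Tmx1 (0.46, standard error 0.23) was higher without overlap. Aifm2, a vitamin K reductase also known as FSP1, had a log2 fold change of -0.39 (standard error 0.42). The edgeR call in this list and that of Dlx3 were each lost when F187, F325, F331, F368, M351 or M624 was left out. edgeR then called 0 genes in either list. Without M408 the vitamin K cycle list had 1 called and the regulator list 0, and without M9 or M664 the counts were 1 and 2.

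Of 13 genes for other vitamin K-dependent proteins, 8 were tested and 0 were called by edgeR, DESeq2 or limma-voom, with none at an unadjusted edgeR p under 0.05 and a median log2 fold change of 0.16. Gas6, the ligand of the TAM receptors, measured 26.9 to 72.9 CPM in the p53-driven and 17.2 to 57.6 CPM in the Myc-knockin tumors (log2 fold change -0.70, standard error 0.40, edgeR adjusted p = 0.279). Pros1, protein S, had a log2 fold change of -0.80 (standard error 0.41, edgeR adjusted p = 0.240). In 5 of the 8 the log2 fold change was above 0, up to 0.82 (standard error 0.83) for Prrg4 and 2.05 (standard error 1.09) for F10, a clotting factor gene. Of 5 genes for processing and reception of osteocalcin, 3 were tested and 0 were called by any of the 3 tools or at an unadjusted edgeR p under 0.05, with a median of -0.13, and the proposed receptors Gprc6a and Gpr158 did not pass the filter on low counts. Furin, which cleaves propeptides, had a log2 fold change of -0.21 (standard error 0.36). Of 5 calcification inhibitors beside Mgp, 3 were tested and 0 were called in the same ways, with a median of 0.20, and Enpp1, which makes pyrophosphate, had -0.77 (standard error 0.61), the pyrophosphate transporter gene Ank 0.20 (standard error 0.68) and Nt5e 0.80 (standard error 0.69).

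**Figure D5:**
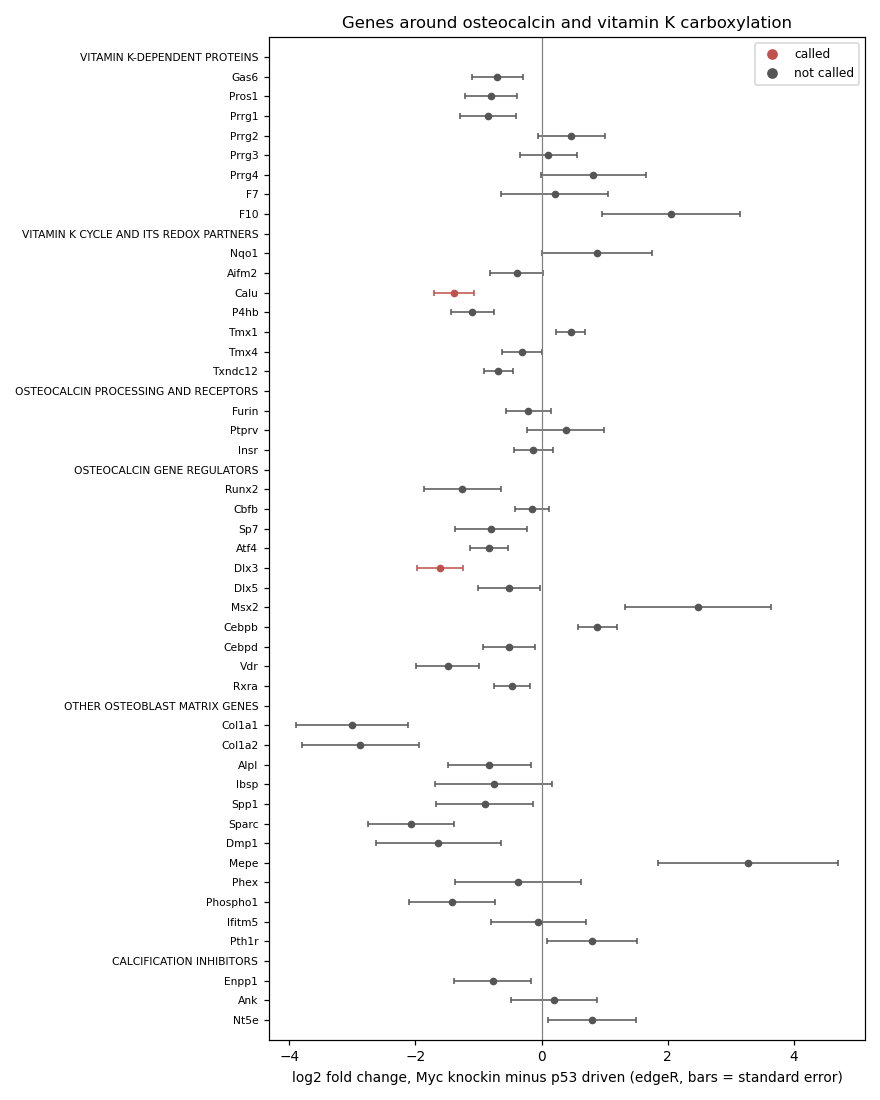
Log2 fold change, Myc knockin minus p53 driven, of tested genes of the 6 lists, with bars for edgeR's standard error and red points for called genes. Calu and Dlx3 are the 2 called genes, both below 0.

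No gene beside the osteocalcin cluster was called by edgeR. Of 11 protein-coding genes within 100 kb, 8 were tested and 0 were called, with 2 at an unadjusted p under 0.05, which DESeq2 and limma-voom called. The log2 fold changes of the 8 ran from -1.03 for Glmp, a lysosomal membrane protein gene, to 1.23 for Cct3, a chaperonin subunit gene (edgeR adjusted p = 0.0622 and 0.0620). Lmna, which encodes lamin A, had 0.17 (standard error 0.37), and Slc25a44, Smg5, Sema4a, Tsacc and Pmf1 ranged from -0.33 to 1.08. Tmem79, Paqr6 and Gm38392 did not pass the filter.

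Over the 9 tumors, the genes whose log2 CPM was most like summed osteocalcin among 9538 genes were Papss1 (Pearson r = 0.974), Wnt4 (0.970), Npr2 (0.968), Cacnb3 (0.963) and Ccdc80 (0.962), then Pgbd5, Col5a1, Zfp862-ps, Apip and Slc9b2 down to 0.95. Those most like Mgp were Rgs5, a pericyte marker (r = 0.914), Lgi2 (0.902), Rpl39 (0.864), Rb1 (0.845) and Galnt11 (0.841). These are descriptions over 9 points from 2 genotypes that share libraries and their depth, and the difference between genotypes enters each of them.

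Some markers of other cells were also lower in the Myc-knockin tumors. Of 7 osteoclast markers, 5 were called lower in the Myc-knockin tumors, and their summed level was 2600 to 13600 CPM in the p53-driven and 116 to 2550 CPM in the Myc-knockin tumors. Of 6 macrophage markers, 3 were called lower (583 to 1120 against 139 to 457 CPM), as were 2 of 6 fibroblast markers (2010 to 2530 against 538 to 996 CPM). The other macrophage markers, Adgre1, C1qa and Cd14, had log2 fold changes of -0.68, 0.17 and 1.13 (standard errors 0.32, 0.54 and 0.50), and the 4 other fibroblast markers ranged from -1.05 for Pdgfra to 0.18 for Pi16. edgeR called 0 chondrocyte, endothelial, smooth muscle and skeletal muscle markers, with 3, 1, 1 and 0 at an unadjusted p under 0.05, while DESeq2 called Col9a1 and limma-voom Notch3. No marker of any list was at 0 in all tumors, no hepatocyte marker passed the filter, and 0 of the 2 tested megakaryocyte and platelet markers were called. The part of these cells in the osteocalcin, Ggcx and Vkorc1 differences was not tested.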

How the data were processed

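RNA-Seq was performed on whole tumors from 4 p53-driven and 5 Myc-knockin GEMMs. The authors prepared libraries with a stranded kit after oligo-dT enrichment, used Trim Galore for trimming of paired-end reads, STAR for mapping to mm10 and featureCounts for counting, and deposited raw counts per gene without normalization for 55367 genes. The strand and multimapping settings of the counting are not given in the sources used here. Column names are absent from the sample labels. Those of 6 columns stand under their genotype in the supporting data of the study, and M351, M9 and M664 were placed in the Myc-knockin group by the letter M. Columns could not be paired with numbered samples.

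Counts were analyzed in R 4.3.3 with edgeR 4.0.16 (TMM, filterByExpr with a minimum count of 10, glmQLFit and glmQLFTest), which kept 15365 genes. Values are TMM-normalized CPM unless stated otherwise. Called genes had an adjusted p under 0.05 (Benjamini-Hochberg over all genes tested) and changed by over 1.5-fold, the thresholds of the study. The 7 genes, the 6 lists of related genes and the cell type markers were chosen with earlier results of these data known. Differences of the 7 genes are therefore a description, and their calls are counted beside those of all genes without being read as a test. The other genes named are those of the 6 lists that were called or that are ligands, receptors or enzymes on which a result turns, the protein-coding genes within 100 kb of the osteocalcin cluster, and the genes most correlated with summed osteocalcin (10) and with Mgp (5) among genes with a mean of at least 10 CPM. Further genes of the lists, such as Runx2, Atf4, Cebpb, Msx2, Col1a1, Sparc and Mepe, were named after their values were seen. Of the genes in the lists, 2 were counted in their list but are not reported singly here. Rn7sk, Myc and the cell type markers were named for the description of the libraries.

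Positions, exon lengths and transcripts came from GENCODE vM21, which holds 55034 of the table's identifiers, and promoters from RefSeq on GRCm38.p6. Genomic background was estimated from the reads per kilobase of exon on 1538 chemosensory receptor genes. Total counts ranged from 2716322 to 17073285, and 3 counts, the limit that a count of 0 allows, equalled 0.114 to 2.39 CPM. Intervals on shares are exact Clopper-Pearson 95% intervals, and intervals and limits cover counting error only. Alternatives were other scalings, no filter on low counts, DESeq2 1.42.0, limma-voom of limma 3.58.1, removal of satellite genes or of the genomic background, and other sets of libraries. The fit within the 4 libraries with satellite reads was added after seeing the data.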

Additional observations from a re-analysis of the deposited data

Results flagged for a closer look

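No value of the 7 genes stood apart from its group. Among the 106 groups of values examined, 5 held a tumor whose gap to its nearest neighbor exceeded Dixon's 95% critical value, and chance gives about 1 in 20. Pros1, the gene for the anticoagulant protein S, had 57.3 CPM in F187 against 85.9 to 91.3 CPM in the other p53-driven tumors, and M408 had 102 CPM where the remaining Myc-knockin tumors had 23.9 to 38.8 CPM. Msx2, a homeobox gene, had 0.122 CPM in F368 against 1.18 to 1.38 CPM in the other p53-driven tumors. Mepe, an osteocyte matrix gene, had 3.55 CPM in F331 against 0 to 0.389 CPM in the other p53-driven tumors. Pth1r, the parathyroid hormone receptor gene, reached 633 CPM in M664, and the remaining Myc-knockin tumors had 44.3 to 123 CPM.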

How the results depend on the processing

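The log2 fold change of summed osteocalcin stayed below 0 in all 21 alternatives, from -5.93 (limma-voom) to -4.28 (without M408), and those of Bglap, Bglap2, Ggcx and Vkorc1 in all 20, whereas Mgp was below 0 in 11 of 20, Vkorc1l1 in 19 of 20 and Bglap3 in 15 of the 16 in which it was tested. The 4 members called were 4 under every alternative that used all 9 tumors except scaling by library size alone, which called 3. They were 3 without the 4 libraries with satellite reads (Bglap lost) and 0 within those libraries, and from 1 to 4 with each tumor left out in turn.

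Calls among all 15365 genes (809) became 494 without the filter, 2646 with DESeq2, 1663 with limma-voom, 136 with library size alone, 4595 without the 4 libraries with satellite reads, and 0 within them (701 at an unadjusted p under 0.05), and ran from 5 to 1588 with each tumor left out. The share of higher calls rose with upper-quartile scaling (626 higher, 345 lower), background subtraction (620 higher, 514 lower), DESeq2 (1534 higher, 1112 lower) and without the satellite libraries (2594 higher, 2001 lower) from 348 higher and 461 lower, and with limma-voom it was 663 higher and 1000 lower. The median log2 fold change of all genes was 0.14, and 0.97 without the filter, 0.24 with upper-quartile scaling and 0.03 with library size alone.

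The regulator list (1 called) had 0 called without the filter, with library size alone and within the satellite libraries, 4 with DESeq2, 2 with limma-voom, 1 without the satellite libraries (Cebpb, higher, in place of Dlx3), and 0 to 2 with each tumor left out. The vitamin K cycle list (1 called) had 0 in those same 3 settings, without M624 and M664 and without the satellite libraries, 3 with DESeq2, 3 with limma-voom, and 0 to 1 with each tumor left out. The matrix list (0 called) had 3 with DESeq2, 3 with limma-voom, 1 without satellite genes and 2 without M624 and M664. The vitamin K-dependent proteins (0 called) had 1 without the satellite libraries and 0 to 1 with each tumor left out. The causes of these changes were not tested. A tumor left alone in its group is assumed to vary like the other group. No paired analysis was possible because the columns carry no replicate numbers. Depth limits Bglap3, Bglap and Bglap2 in M351 and M9, where 3 counts equal 1.85 and 2.39 CPM.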
